A study of Neurospora crassa with 18 samples.

Results

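The mRNA response of the *cpc-1* deletion strain (*cpc-1Δ*) of the filamentous fungus *Neurospora crassa* to 3-AT (aminotriazole) was described from 5 of the 18 mRNA-seq libraries of the series. These 5 were all the libraries of *cpc-1Δ* mycelia from 2% glucose medium, 2 from cultures without 3-AT and 3 from cultures that had received 5 mM 3-AT for 8 h. Both groups carried the deletion, came from the same knockout library strain and were grown from fresh conidia in constant light, so that 3-AT was the only difference given by the labels. The strain is a single deletion line, and nothing in the labels says that libraries of a group came from separate cultures, so that the adjusted *P* values below measure only the spread between these libraries. The same 3-AT treatment of the WT strain FGSC4200 (3 libraries without and 3 with 3-AT, in the same medium) served for comparison. Whether FGSC4200 and the deletion strain differ at loci other than *cpc-1* is not given in the sources used here. Libraries from 0.1% glucose medium with 0.17% arginine (2 of each strain) entered the fit for the estimate of the spread. They also counted in the scaling and in the choice of the genes tested.

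CPC-1 is the bZIP transcription activator of cross-pathway control, the general amino acid control of *Neurospora*, and is the ortholog of GCN4 of *Saccharomyces cerevisiae*. When cells run short of 1 amino acid, it raises the mRNAs of enzymes that make many amino acids. 3-AT blocks an enzyme of histidine synthesis and so starves cells of histidine, and it is also known as an inhibitor of catalases. The comparison therefore asks which mRNAs changed with 3-AT in cells that lack this activator.

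The deleted gene was nearly absent from the *cpc-1Δ* libraries. After scaling (below), *cpc-1* (NCU04050) was listed at 2.37 and 3.87 RPKM without 3-AT and at 2.30, 2.53 and 2.23 RPKM with 3-AT, and the groups overlapped. In the WT strain it was at 1260 ± 30.2 RPKM without and 1704 ± 26.5 RPKM with 3-AT (SD, *n* = 3 each). Since no read counts were given, the depth behind these values is unknown. The 2 groups of *cpc-1Δ* differed in their deposited totals, which were 515150 and 516957 RPKM without 3-AT and between 309352 and 328418 RPKM with 3-AT. The 1st percentile of the values above 0, a rough mark of how finely a library resolves low levels, was 0.096 and 0.135 RPKM without 3-AT and 0.0457 to 0.0651 RPKM with 3-AT. These 2 differences go with the treatment and cannot be told apart from it. Spearman's rho between libraries of a group was at least 0.95 in both groups.

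The scale of the values decided the overall direction. Taken as deposited, the median log2 fold change with 3-AT was −0.38 over the 9013 genes with a value above 0 in any library of the fit, and −0.49 over 4452 genes that averaged at least 10 scaled RPKM. With deposited values, 386 genes rose (4.28%) and 3949 fell (43.8%) at an adjusted *P* under 0.05. Each library was therefore scaled by the median ratio of its values to the mean library, which brought the median log2 fold change to 0 and gave the values called scaled RPKM here. With scaled values, 1413 genes rose (15.7% of those tested) and 1359 fell (15.1%). All 1359 of the latter also fell as deposited, while 378 of the genes that rose did so on both scales and 186 rose as scaled but fell as deposited. A rise below therefore means a rise relative to the median gene, and the deposited value is given where it turns a direction. The 2 distributions, drawn for genes averaging at least 10 scaled RPKM, have a similar shape and are set apart by about the difference of their medians.

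**Figure D1:**
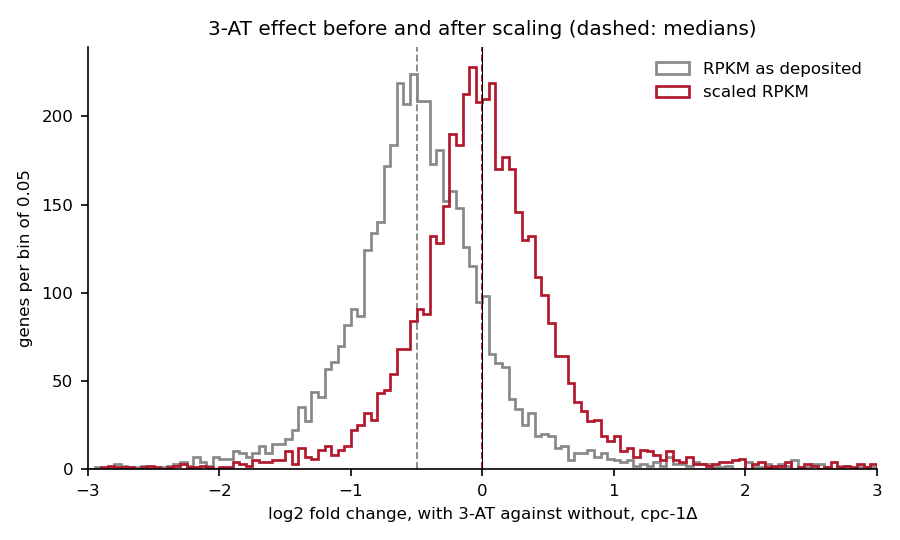
Histogram of the log2 fold change with 3-AT in *cpc-1Δ* (x axis, log2 of RPKM + 1, 3 libraries against 2) for the 4452 genes that averaged at least 10 scaled RPKM (y axis, genes per bin of 0.05), from deposited values (grey) and scaled values (red). The dashed medians are at −0.49 and close to 0, and genes beyond 3 in either direction (65 and 64 genes) are not drawn.

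Most changes were small. The median size of the log2 fold change among the genes called was 0.52, and 270 genes rose and 188 fell by at least 1 on the log2 scale. Of all genes, 58.5% had groups that did not overlap (28.6% higher and 29.8% lower with 3-AT), so that non-overlap alone says little of a single gene. In a few genes with several annotated transcripts, the first transcript alone moved against the sum and was called, namely *arg-1*, *eth-1*, *hsp88*, *gsy-1*, *cys-18* and *emp-7*. Their falls below are those of the sum. In others the fall of the sum was not called from the first transcript, namely *nuo13.4* (log2 fold change, 0.05), *wc-1* (1.42), NCU01436 (4.60), *eat-5* (−0.27), *ylo-1* (−0.10), *adh-1* (−6.43) and *gst-3* (0). Calls were also more frequent among abundant mRNAs. Of 2834 genes that averaged at least 20 scaled RPKM, 51.1% were called, with 22.9% rising and 28.2% falling, and these shares are the closer background for the enzyme and ribosome genes below.

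Genes of histidine synthesis did not rise together. Of 7 genes listed, 4 were found by symbol, of which 1 rose, 1 fell and 2 were not called (median log2 fold change, −0.05). *his-3* (NCU03139) encodes a trifunctional enzyme of the pathway and had 62.7 and 64.0 scaled RPKM without 3-AT and 49.5, 49.6 and 49.0 with 3-AT. All 3 treated libraries were below both untreated ones, with a log2 fold change of −0.35 (SE, 0.05, adjusted *P* = 0.000286 by limma with Benjamini-Hochberg adjustment, as for all adjusted *P* values here). *his-6* (NCU07156) was at 31.5 and 28.2 scaled RPKM without and at 39.7, 41.8 and 40.4 with 3-AT. It rose by 0.43 on the log2 scale (adjusted *P* = 0.000744), although its log2 fold change was −0.06 as deposited (adjusted *P* = 0.623). *his-2* (log2 fold change, −0.23, adjusted *P* = 0.0532) and *his-7* (0.13, adjusted *P* = 0.709) did not pass the threshold. *his-2* passed it in most other ways of handling the values, upper-quartile scaling among them (log2 fold change, −0.30, adjusted *P* = 0.0141).

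The same 4 genes behaved otherwise in the WT strain, where 3 of them rose with 3-AT. *his-3* went from 111 ± 0.714 to 283 ± 7.68 scaled RPKM in WT (SD, *n* = 3 each), a log2 fold change of 1.34, and its 3-AT effect in *cpc-1Δ* was lower than that in WT by 1.70 on the log2 scale (adjusted *P* of the difference, 1.28e-08). *his-6*, which rose in both strains, had log2 fold changes of 0.43 in *cpc-1Δ* and 1.83 in WT, a difference of −1.40 (adjusted *P* = 9.17e-07). For *his-2* the difference was −0.93 (adjusted *P* = 5.79e-05), and for *his-7* it was 0.05 (adjusted *P* = 0.929). Over all genes tested, the 3-AT effect was higher in *cpc-1Δ* than in WT for 1356 of 9013 genes and lower for 1863 (20.7%). The contrasts of the 2 strains share no library.

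Of the other genes of cross-pathway control, *cpc-2* (NCU05810) encodes a RACK1-like WD-repeat protein. It had 894 and 901 scaled RPKM without and 643, 661 and 642 with 3-AT, and it fell (log2 fold change, −0.47, adjusted *P* = 7.61e-06). Its fall was smaller than the one in WT, where the log2 fold change was −1.44 (difference, 0.97, adjusted *P* = 1.69e-07). *cpc-3*, which encodes the GCN2-like kinase that senses uncharged tRNA, had 8.48 and 8.54 scaled RPKM without and 7.71, 7.54 and 7.61 with 3-AT. It did not pass the threshold (log2 fold change, −0.14, adjusted *P* = 0.0951), but fell after upper-quartile scaling (−0.20, adjusted *P* = 0.019). In WT *cpc-3* rose by 0.98 on the log2 scale, and the effects differed by −1.13 (adjusted *P* = 1.25e-06). What was left of *cpc-1* itself was not called in *cpc-1Δ* (log2 fold change, −0.27, adjusted *P* = 0.106), and its effect was 0.71 lower on the log2 scale than in WT. Without the 1st untreated library it was called (log2 fold change, −0.54, adjusted *P* = 0.000172).

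Targets of CPC-1 that the study had picked for qRT-PCR formed a list of their own. Of 14 such genes, 10 were found by symbol. With 3-AT 2 of these rose, 4 fell and 4 were not called in *cpc-1Δ* (median log2 fold change, −0.25), whereas 7 rose and none fell in WT (median, 1.02). They were picked as CPC-1 targets, so that their direction in WT is not independent evidence. The falls in *cpc-1Δ* were those of *thr-4* (log2 fold change, −0.59), *aro-7* (−0.44), *aro-8* (−0.37) and *his-3*. *thr-4* had 15.99 and 17.4 scaled RPKM without 3-AT and 10.3, 10.5 and 11.4 with 3-AT, so that the groups were well apart (adjusted *P* = 0.000126). *ppm-3* rose from 29.2 and 27.7 to 50.0, 48.9 and 44.4 scaled RPKM (log2 fold change, 0.73, adjusted *P* = 6.54e-06). In WT its log2 fold change was 0.74, and the difference between the strains was −0.02 (adjusted *P* = 0.903). *arg-10*, the gene of argininosuccinate lyase, rose by 0.21 on the log2 scale with scaled values (adjusted *P* = 0.0194) and fell as deposited (−0.29, adjusted *P* = 0.00726). Its rise was also lost without the 1st untreated library (log2 fold change, 0.15, adjusted *P* = 0.158) and without the 2nd or the 3rd treated one (adjusted *P* = 0.0605 and 0.0515). *arg-12*, the gene of ornithine carbamoyltransferase, lay between 27.2 and 34.4 scaled RPKM in all 5 libraries with overlapping groups (log2 fold change, 0.09, adjusted *P* = 0.603). In WT it rose from 137 ± 1.01 to 430 ± 6.47 scaled RPKM. *thr-5* was not called (log2 fold change, −0.27, adjusted *P* = 0.0859), nor was it in WT, but it fell in *cpc-1Δ* after upper-quartile scaling (−0.33, adjusted *P* = 0.0348). *hom-1* (log2 fold change, −0.24, adjusted *P* = 0.93) and *trp-3* (0.45, adjusted *P* = 0.929) were not called because another library of the fit listed them at 0, which inflated their standard errors to 1.08 and 2.02. For *trp-3* this was the 2nd treated WT library, against 396 and 421 scaled RPKM in the others and 120 ± 1.87 in WT without 3-AT. *hom-1* went from 130 ± 6.69 to 285 ± 9.50 scaled RPKM in WT. Neither *trp-3* nor *hom-1* is among the 7 genes that rose in WT (adjusted *P* = 0.696 and 0.415). With isolated zeros set to missing, *hom-1* fell in *cpc-1Δ* (adjusted *P* = 0.026) and *trp-3* rose (adjusted *P* = 0.000219), and *trp-3* also rose when only the 5 libraries were fitted (adjusted *P* = 0.0126). A wider rule for zeros, chosen after the data were seen, gave the same calls (adjusted *P* = 0.028 and 0.000267). As deposited, 1 of the 10 rose and 7 fell in *cpc-1Δ*.

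**Figure D2:**
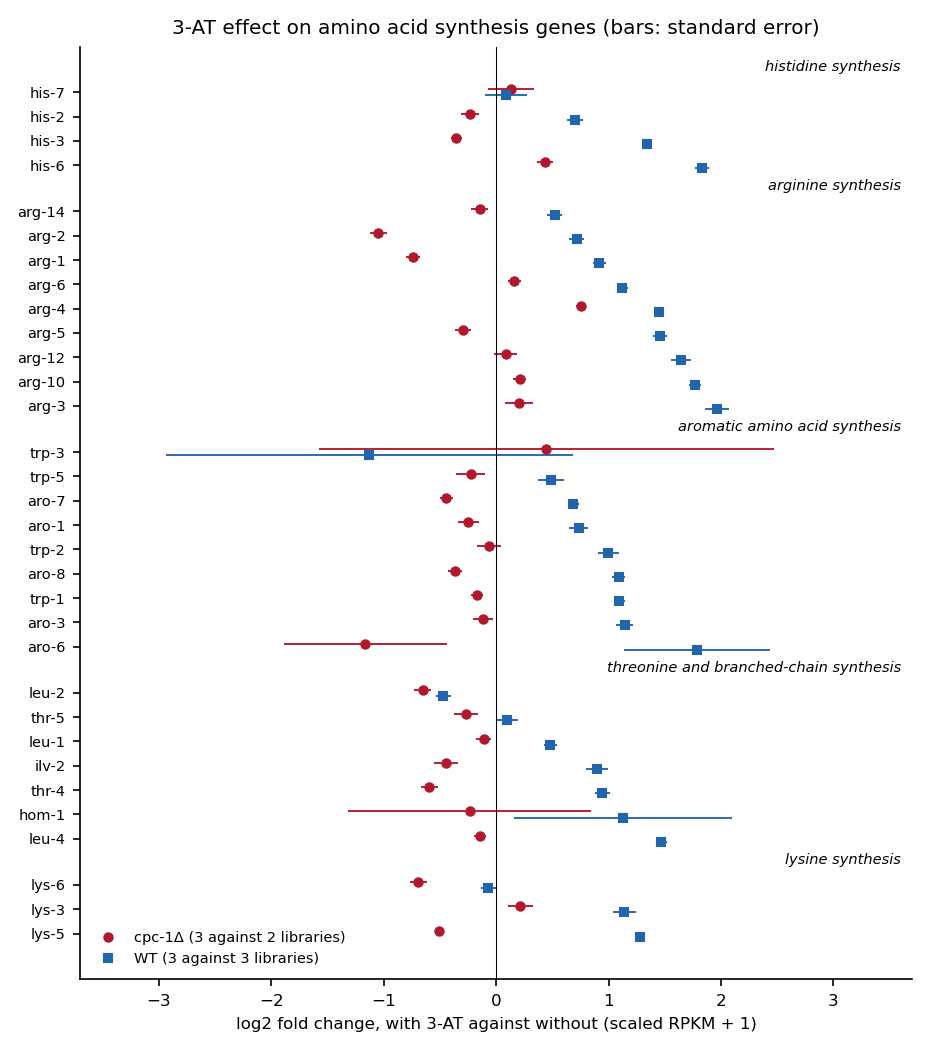
The 3-AT effect (x axis, log2 fold change of scaled RPKM + 1) on 32 genes of 5 amino acid synthesis lists in *cpc-1Δ* (red circles) and WT (blue squares), with the standard error of each as a bar. Except for *trp-3* and *his-7*, each blue square lies to the right of the red circle of the same gene, and the red circles lie on both sides of 0, most of them between −0.7 and 0.5. The blue square of *trp-3* rests on 1 treated WT library listed at 0, against 396 and 421 scaled RPKM in the others.

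The other amino acid pathways also held few rises. The 5 lists together (histidine, arginine, aromatic amino acids, threonine with the branched-chain amino acids, and lysine) held 33 genes. These include *trp-5*, which is also in the list of aminoacyl-tRNA synthetases. Of the 33, 3 rose in *cpc-1Δ* (9.09%), 13 fell (39.4%) and 17 were not called, with a median log2 fold change of −0.23. Of all genes, 15.7% rose and 15.1% fell in *cpc-1Δ*. Among genes averaging at least 20 scaled RPKM the shares were 22.9% and 28.2%. In WT 27 of the 33 rose and 1 fell, with a median of 1.00, where 24.2% of all genes rose and 15.7% fell. The 3-AT effect was lower in *cpc-1Δ* than in WT for 28 of the 33 genes and higher for none, where a lower effect was called in 20.7% of all genes. As deposited, 1 of the 33 rose in *cpc-1Δ* and 25 fell. The plot of these genes shows the effect in both strains for 32 of them, without *trp-4*.

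Arginine synthesis held genes that moved in both directions. Of its 9 genes, 2 rose, 3 fell and 4 were not called in *cpc-1Δ*, all 9 rose in WT, and the effect was lower in *cpc-1Δ* for all 9. As deposited 1 rose and 7 fell, and with the first transcript alone 5 rose. *arg-2*, which encodes the small subunit of the arginine-specific carbamoyl phosphate synthetase, had 106 scaled RPKM in both libraries without 3-AT and 49.6, 52.8 and 49.8 with 3-AT. It fell by 1.05 on the log2 scale (adjusted *P* = 2.46e-06) and rose by 0.72 in WT. *arg-1*, the gene of argininosuccinate synthetase, fell from 144 and 150 to 85.8, 90.0 and 86.9 scaled RPKM (log2 fold change, −0.74, adjusted *P* = 1.23e-05). *arg-5* fell by 0.29 on the log2 scale (adjusted *P* = 0.00868). *arg-4*, the gene of acetylornithine-glutamate acetyltransferase, rose from 69.5 and 69.6 to 118, 119 and 117 scaled RPKM (log2 fold change, 0.75, adjusted *P* = 8.21e-07). This rise was also called as deposited (0.25, adjusted *P* = 0.00279), and it was 0.69 smaller on the log2 scale than the rise of *arg-4* in WT. Of 6 genes of arginine breakdown and ornithine use found (9 listed), 1 rose and 2 fell. The arginase gene *aga-1* rose by 0.17 on the log2 scale (adjusted *P* = 0.0261) with scaled values and fell as deposited (−0.33, adjusted *P* = 0.00236). Upper-quartile scaling (adjusted *P* = 0.172) and leaving out the 2nd untreated library (log2 fold change, 0.11, adjusted *P* = 0.214) or the 2nd treated one (adjusted *P* = 0.0796) ended that call. The ornithine aminotransferase gene *ota* fell (log2 fold change, −0.68, adjusted *P* = 2.38e-05), and so did *pro-4* (−0.35, adjusted *P* = 0.0107), though not without the 1st untreated library (adjusted *P* = 0.0755).

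With scaled values of summed transcripts in the fit of all 15 libraries, zeros kept, no gene of the aromatic, threonine and branched-chain, or lysine lists was called as rising in *cpc-1Δ*. *trp-3* had 32.4 and 33.7 scaled RPKM without and 44.9, 48.3 and 43.1 with 3-AT, with groups that did not overlap, and was called only in the other fits given above. Of 10 aromatic genes found (12 listed), 4 fell, among them *aro-7*, *aro-8* and *trp-4*, while 9 rose in WT. The 10 include *trp-5*, which is also counted below among the aminoacyl-tRNA synthetases. With zeros set to missing, 3 fell and 1 rose in *cpc-1Δ*. *trp-4* had 25.8 and 25.7 scaled RPKM without 3-AT and was listed at 0 in all 3 treated libraries, where the WT strain had 64.7 ± 3.86 (SD, *n* = 3), and a value of 0 is not read here as absence of the mRNA. In *aro-6* a single treated library stood apart, at 5.25 scaled RPKM against 51.0 and 51.5 in the others, and the gene was not called (adjusted *P* = 0.271). Of 7 threonine and branched-chain genes found (13 listed), *leu-2* (log2 fold change, −0.65, adjusted *P* = 7.24e-05), *thr-4* and *ilv-2* (−0.45, adjusted *P* = 0.0101) fell. *ilv-2* was not called without the 2nd untreated library (adjusted *P* = 0.0592). *leu-2* also fell in WT, with no difference called between the strains (−0.18, adjusted *P* = 0.188). Of 3 lysine genes found (6 listed), *lys-6* (log2 fold change, −0.69, adjusted *P* = 5.39e-05) and *lys-5* (−0.51, adjusted *P* = 5.77e-06) fell. *lys-5* had 185 and 184 scaled RPKM without and 126, 130 and 133 with 3-AT in *cpc-1Δ*, against 368 ± 5.07 and 895 ± 6.50 in WT. Of 5 genes of aminoacyl-tRNA synthetases found by symbol, 1 fell by little and none rose. The fall was that of *cyt-20* (log2 fold change, −0.16, adjusted *P* = 0.0307). The call of *cyt-20* was lost without any 1 of the 5 libraries (adjusted *P* between 0.0504 and 0.138). In WT *cyt-20* rose by 1.55 on the log2 scale.

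Genes of sulfur and methionine metabolism fell or were not called. Of 13 genes found (17 listed), 7 fell, none rose and 6 were not called (median log2 fold change, −0.28), against 28.2% falling among abundant genes, and 11 fell as deposited. *met-8*, the gene of methionine synthase, had 1185 and 1227 scaled RPKM without and 503, 504 and 498 with 3-AT. Its log2 fold change was −1.26 (adjusted *P* = 3.19e-09), and in WT it was −1.15, with no difference called (−0.12, adjusted *P* = 0.101). *eth-1*, the gene of S-adenosylmethionine synthetase, went from 263 and 257 to 135, 134 and 135 scaled RPKM (log2 fold change, −0.94, adjusted *P* = 4.44e-08), while it rose by 0.14 on the log2 scale in WT. *cys-11*, the gene of ATP sulfurylase, went from 113 and 115 to 61.6, 65.6 and 61.1 scaled RPKM (log2 fold change, −0.85, adjusted *P* = 3.13e-06), and rose by 0.83 in WT. *cys-18*, which was not in the list, fell from 764 and 799 to 330, 332 and 323 scaled RPKM (log2 fold change, −1.25, adjusted *P* = 9.87e-09).

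In nitrogen metabolism 3 of 11 genes found (13 listed) rose and 3 fell with scaled values, while 1 rose and 7 fell as deposited. *gln-2*, a glutamine synthetase gene, fell from 319 and 322 to 241, 231 and 234 scaled RPKM (log2 fold change, −0.45, adjusted *P* = 7.26e-06). *am*, the gene of the NADP-dependent glutamate dehydrogenase, fell by 0.41 on the log2 scale (adjusted *P* = 0.0131), and its call was lost without either untreated library (adjusted *P* = 0.0629 and 0.0636). *nmr*, a negative regulator of nitrogen catabolic genes, was listed at 0 in both libraries without 3-AT and at 7.22, 5.63 and 5.91 scaled RPKM with 3-AT. Among the 4 amino acid permease genes, *pmg*, the general permease, had the largest fall of all genes with a symbol and no value of 0. It went from 80.9 and 83.4 to 10.02, 11.6 and 10.4 scaled RPKM (log2 fold change, −2.83, adjusted *P* = 5.28e-06). In WT it fell further, from 48.1 ± 2.21 to 2.31 ± 1.07 scaled RPKM (log2 fold change, −3.95). *pmb*, the permease of basic amino acids, fell (log2 fold change, −0.49, adjusted *P* = 0.000248). *mtr*, the permease of neutral amino acids, had 277 and 274 scaled RPKM without and 323, 320 and 336 with 3-AT. It rose by 0.24 on the log2 scale (adjusted *P* = 0.00098) with scaled values and fell as deposited (−0.27, adjusted *P* = 0.000381), and in WT it fell from 335 ± 5.03 to 128 ± 1.22.

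Most genes of glycolysis fell. In glycolysis and alcohol fermentation 8 of 9 genes fell and none rose (median log2 fold change, −0.58), and 7 fell in WT (median, −0.25). With the first transcript alone, 5 fell and 2 rose in *cpc-1Δ*. *adh-1*, an alcohol dehydrogenase gene, had 1507 and 1589 scaled RPKM without and 550, 791 and 547 with 3-AT (log2 fold change, −1.32, adjusted *P* = 0.0135), a call that was lost without either untreated library (adjusted *P* = 0.0578 and 0.0757). *emp-7* (log2 fold change, −0.77, adjusted *P* = 3.76e-07) and *emp-6* (−0.89, adjusted *P* = 0.00245) also fell. Of 6 genes of the glyoxylate cycle and gluconeogenesis found (7 listed), 3 fell (50%, against 15.1% of all genes) and none rose, whereas 4 rose in WT. In *cpc-1Δ* 1 rose with a pseudocount of 5, with the 5 libraries alone or with isolated zeros set to missing. Of the genes averaging at least 20 scaled RPKM, fitted apart, 1 rose and 0 fell. *acu-6*, the gene of phosphoenolpyruvate carboxykinase, went from 8.10 and 9.39 to 3.05, 2.18 and 2.56 scaled RPKM (log2 fold change, −1.44, adjusted *P* = 5.00e-06). In WT it rose from 24.9 ± 1.69 to 655 ± 14.6 scaled RPKM, and the effects differed by −6.11 on the log2 scale (adjusted *P* = 3.2e-10). *acu-9*, the gene of malate synthase, went from 18.9 and 19.1 to 11.7, 10.9 and 9.92 scaled RPKM (log2 fold change, −0.76, adjusted *P* = 0.0292) and from 53.7 ± 2.07 to 289 ± 3.06 in WT. Its call in *cpc-1Δ* was lost without either untreated library and without the 2nd or the 3rd treated one (adjusted *P* between 0.0607 and 0.119). *acu-15* fell (log2 fold change, −0.59, adjusted *P* = 1.61e-05). Of 7 genes of sugar transport and starch use found (10 listed), 1 rose and 2 fell. *hgt-1* fell (log2 fold change, −0.50, adjusted *P* = 0.00967, without the 1st untreated library, 0.0701), as did *cre-1* (−0.31, adjusted *P* = 0.00536), and *sor-4* rose (0.30, adjusted *P* = 0.00174) but fell as deposited (−0.18, adjusted *P* = 0.0437). Of 4 glycogen and trehalose genes, *gsy-1*, the glycogen synthase gene, fell (−0.37, adjusted *P* = 5.28e-05). *tre-2* had a log2 fold change of 0.14 (adjusted *P* = 0.043) with scaled values and of −0.36 as deposited, and without any 1 library its adjusted *P* was between 0.067 and 0.19.

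In the respiratory chain and ATP synthase list 24 of 41 genes fell, 3 rose and 14 were not called (median log2 fold change, −0.28), and 23 fell and 3 rose in WT (median, −0.23). As deposited 38 fell and none rose in *cpc-1Δ*. The largest falls were those of the complex I subunit genes *nuo13.4* (log2 fold change, −1.11, adjusted *P* = 2.72e-06) and *nuo14.8* (−0.95, adjusted *P* = 2.46e-06) and the cytochrome oxidase subunit gene *cox-4* (−0.99, adjusted *P* = 0.000265). *nuo13.4* had 163 and 165 scaled RPKM without and 71.9, 81.0 and 74.1 with 3-AT as the sum of its transcripts, while its first transcript alone had a log2 fold change of 0.05 (adjusted *P* = 0.828). Without the 1st untreated library 1 gene of the list rose in place of 3.

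Of the 6 catalase and superoxide dismutase genes found (8 listed), none rose, 2 fell and 4 were not called. The share that fell (33.3%) was near the 28.2% of abundant genes. The highest log2 fold change, in a gene not called, was 0.83. In WT none rose and 2 fell. The catalase gene *cat-3* had 154 and 155 scaled RPKM without and 106, 109 and 103 with 3-AT, and it fell (log2 fold change, −0.54, adjusted *P* = 1.93e-05). *sod-1*, the copper-zinc superoxide dismutase gene, fell from 331 and 328 to 199, 194 and 203 scaled RPKM (log2 fold change, −0.73, adjusted *P* = 5.45e-06). Of 5 genes of peroxidases, thioredoxins and glutathione enzymes, 3 fell and none rose. *gst-1* (log2 fold change, −0.71, adjusted *P* = 0.000664) and *gst-2* (−0.63, adjusted *P* = 0.00182) were among them, and *gst-3* had 23.7 and 22.8 scaled RPKM without 3-AT and was listed at 0 in the 3 treated libraries. Of 11 heat shock and chaperone genes, 4 fell (36.4%, against 28.2% of abundant genes) and none rose (median log2 fold change, −0.31), and 10 fell as deposited. The falls were led by *hsp80*, which went from 434 and 456 to 258, 252 and 247 scaled RPKM (log2 fold change, −0.82, adjusted *P* = 3.89e-07), and *hsp88* (−0.60, adjusted *P* = 2.59e-06). *grp78*, the chaperone gene of the endoplasmic reticulum, fell by 0.48 on the log2 scale (adjusted *P* = 1.17e-05).

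Among the 31 lists, histone genes had the largest share of rises. Of 9, 7 rose and none fell with scaled values (median log2 fold change, 0.29), while 7 fell in WT (median, −0.76), and the effect was higher in *cpc-1Δ* for 8 of the 9. As deposited, however, none of the 9 rose in *cpc-1Δ* and 5 fell. *hH2A* had 830 and 854 scaled RPKM without and 1366, 1380 and 1217 with 3-AT (log2 fold change, 0.65, adjusted *P* = 1.18e-05), and went from 1224 ± 23.7 to 633 ± 11.9 in WT. *hH3* had 1396 and 1058 scaled RPKM without and 1811, 1914 and 1732 with 3-AT (log2 fold change, 0.58, adjusted *P* = 0.00606). Its untreated libraries differed, and without the 2nd of them its adjusted *P* was 0.0739 (log2 fold change, 0.38). *hH3v* rose by 0.40 on the log2 scale (adjusted *P* = 0.00462, without the 2nd untreated library, 0.0515), but its log2 fold change as deposited was −0.09.

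Of 11 genes of cytosolic ribosomal proteins found by symbol, 8 fell, 1 rose and 2 were not called in *cpc-1Δ* (median log2 fold change, −0.38). In WT 10 fell (median, −1.24). The effect was higher in *cpc-1Δ* for 10 of the 11. *crp-4* had 994 and 1006 scaled RPKM without and 644, 666 and 662 with 3-AT, a log2 fold change of −0.61 (adjusted *P* = 1.64e-06), against −1.36 in WT. *crp-15* fell by 0.53 (adjusted *P* = 1.19e-05). The rise was that of *ubi::crp-6*, a fusion of ubiquitin and a ribosomal protein, whose untreated libraries stood far apart at 719 and 246 scaled RPKM, against 831 to 871 with 3-AT. It was called with scaled values (log2 fold change, 1.02, adjusted *P* = 0.0325), but not as deposited (0.51, adjusted *P* = 0.221) and not when any 1 treated library was left out (adjusted *P* between 0.0646 and 0.075). In the proteasome 7 of 30 genes rose and 10 fell (median log2 fold change, −0.05), while none rose and 23 fell in WT. In *cpc-1Δ* these shares (23.3% and 33.3%) were near the 22.9% and 28.2% of abundant genes. With zeros set to missing, 6 rose. As deposited 2 rose and 25 fell in *cpc-1Δ* (median, −0.55). *rpn-12* rose from 54.3 and 57.5 to 103, 99.3 and 94.5 scaled RPKM (log2 fold change, 0.81, adjusted *P* = 1.2e-05), and *rpn-11* fell from 65.1 and 65.9 to 34.7, 38.7 and 37.0 (−0.82, adjusted *P* = 5.57e-06). *rpn-4* was listed at 0 in both libraries without 3-AT and at 20.7, 14.3 and 20.5 scaled RPKM with 3-AT. Neither of 2 autophagy genes was called.

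β-Tubulin, the reference gene of the qRT-PCR of the study (*Bml*, NCU04054), was not called on the scaled values, at 342 and 347 scaled RPKM without and 357, 346 and 354 with 3-AT (log2 fold change, 0.03, adjusted *P* = 0.658). As deposited it fell by 0.48 on the log2 scale (adjusted *P* = 8.58e-06). The other 3 actin and tubulin genes fell, *tba-2* by 0.32 (adjusted *P* = 0.000569), *act* by 0.28 (adjusted *P* = 0.00101) and *tba-1* by 0.17 on the log2 scale (adjusted *P* = 0.02). The call of *tba-1* was lost without the 1st or the 3rd treated or either untreated library (adjusted *P* between 0.0535 and 0.083).

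**Figure D3:**
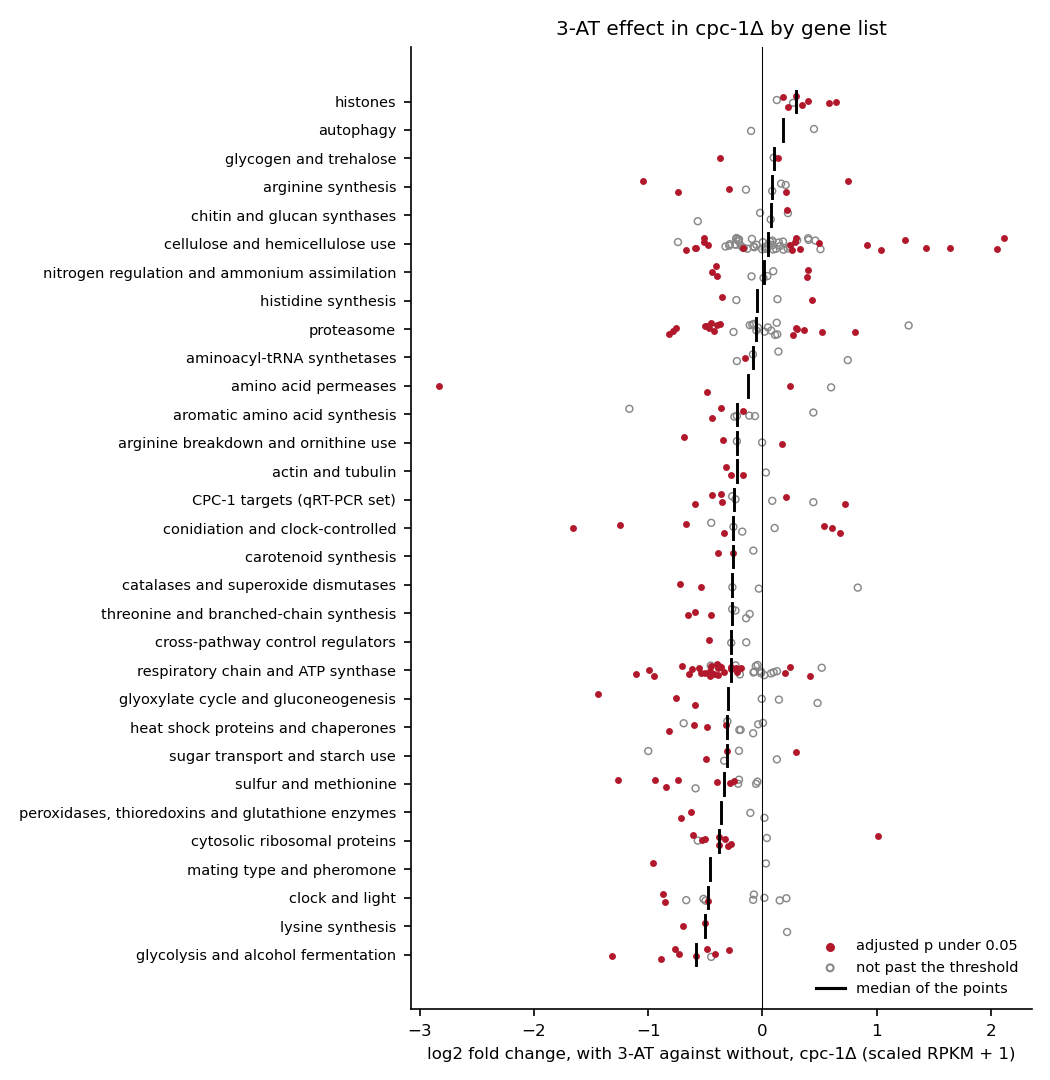
The 3-AT effect in *cpc-1Δ* (x axis, log2 fold change of scaled RPKM + 1, 3 libraries against 2) of the members of 31 gene lists, without members listed at 0 in any of the 5 libraries. Filled points passed an adjusted *P* of 0.05, open points did not, and the black bars are the medians of the points, which run from −0.58 for glycolysis and alcohol fermentation to 0.29 for histones.

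Of 18 genes of conidiation and clock-controlled genes, 4 rose and 6 fell with scaled values (median log2 fold change, −0.22). As deposited 1 rose and 8 fell, and 2 rose with a mean of at least 20 scaled RPKM. *con-8* had 78.5 and 83.7 scaled RPKM without and 24.8, 23.7 and 26.3 with 3-AT (log2 fold change, −1.66, adjusted *P* = 2.07e-08), which is near the 27.6 ± 1.51 and 26.7 ± 0.963 of WT without and with 3-AT. *ccg-1* fell from 2027 and 2052 to 817, 845 and 917 scaled RPKM (log2 fold change, −1.25, adjusted *P* = 1.35e-07). The conidiation regulator gene *fl* rose from 14.3 and 13.3 to 22.2, 24.0 and 22.04 scaled RPKM (log2 fold change, 0.68, adjusted *P* = 0.000297). Of the other markers of conidia, *con-6* was listed at 0 in all 5 libraries, *con-13* reached at most 1.21 scaled RPKM, and *con-10* lay between 12.7 and 24.4 with overlapping groups. The hydrophobin gene *eas* was at 14.3 and 14.2 scaled RPKM without 3-AT and at 0, 69.4 and 65.1 with 3-AT, and was not called. In bulk RNA, fewer cells of a type and less RNA per cell cannot be told apart. Of the clock and light genes 3 of 13 fell and none rose, and 8 fell as deposited. The share that fell (23.1%) lay between the 15.1% of all genes and the 28.2% of abundant genes. With a pseudocount of 5, a filter of 1 scaled RPKM, the 5 libraries alone or a mean of at least 20 scaled RPKM, 1 rose. *wc-1*, which encodes the blue-light receptor of the clock, went from 14.8 and 15.2 to 6.68, 8.97 and 7.63 scaled RPKM (log2 fold change, −0.87, adjusted *P* = 0.0281), and without the 1st or the 3rd treated or either untreated library its adjusted *P* was between 0.0631 and 0.12. *csp-1* (log2 fold change, −0.85, adjusted *P* = 7.26e-06), a transcriptional repressor gene under the clock, and the photolyase gene *phr* (−0.48, adjusted *P* = 0.00259) fell as well. Of 5 carotenoid genes, *ylo-1* (−0.39, adjusted *P* = 0.00218, and with the first transcript alone 0.644) and *al-2* (−0.26, adjusted *P* = 0.000405) fell. The pheromone precursor gene *mfa-1* was near 4.26 scaled RPKM in both libraries without 3-AT and at 1.62 to 1.90 with 3-AT (log2 fold change, −0.96, adjusted *P* = 6.09e-07), against 58.7 ± 0.875 in WT without 3-AT.

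The list of cellulose and hemicellulose use took in every gene with a glycoside hydrolase symbol, whatever its substrate, so that its counts do not describe that use alone. Of its 87 genes, 13 rose, 8 fell and 66 were not called (median log2 fold change, 0.00). The share that rose (14.9%) was close to the 15.7% of all genes, and the share that fell (9.2%) was below the 15.1% of all genes. As deposited 7 rose and 24 fell, and 7 rose without the 1st untreated library. *gh61-3* had 6.10 and 5.29 scaled RPKM without and 27.1, 30.5 and 26.3 with 3-AT (log2 fold change, 2.11, adjusted *P* = 7.61e-06), and *gh61-7* was at 0.168 and 0.421 without and at 2.25 to 4.55 with 3-AT. *neg-1*, which encodes an endoglucanase of beta-1,6-glucan, a polymer of fungal walls, rose from 28.4 and 28.1 to 123, 121 and 118 scaled RPKM (log2 fold change, 2.06, adjusted *P* = 4.44e-08). In WT *neg-1* was not called, at 11.2 ± 1.22 without and 10.7 ± 1.05 scaled RPKM with 3-AT. *gh16-1* rose in *cpc-1Δ* from 85.1 and 87.5 to 209, 208 and 203 scaled RPKM (log2 fold change, 1.25, adjusted *P* = 1.04e-08) and fell in WT from 125 ± 1.74 to 71.7 ± 1.99. *gh28-1* rose from 85.0 and 77.9 to 170, 168 and 130 scaled RPKM (log2 fold change, 0.92, adjusted *P* = 0.00102) and fell in WT by 1.77 on the log2 scale. *acw-4*, an anchored cell wall protein gene, rose from 159 and 143 to 287, 264 and 308 scaled RPKM (log2 fold change, 0.91, adjusted *P* = 6.03e-05) and fell in WT by 0.36. The chitin synthase gene *chs-1* rose by 0.21 on the log2 scale (adjusted *P* = 0.013) with scaled values, fell as deposited (−0.29, adjusted *P* = 0.00334), and was not called without the 1st untreated library (adjusted *P* = 0.102).

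The genes with the largest changes were taken from 949 that passed the threshold in the same direction on both scales, had a mean of at least 20 scaled RPKM and groups that did not overlap. Only 149 of these rose and 800 fell, as the deposited values of most genes were lower with 3-AT. Besides the genes above, the laccase gene *lacc* rose from 19.1 and 20.3 to 89.8, 91.6 and 88.4 scaled RPKM (log2 fold change, 2.13, adjusted *P* = 0.000131). *pyr-4*, the gene of orotidine phosphate decarboxylase in pyrimidine synthesis, rose from 21.4 and 20.8 to 95.6, 99.4 and 88.5 scaled RPKM (log2 fold change, 2.11, adjusted *P* = 5.39e-05). In WT neither was called, with log2 fold changes of 0.60 and −0.25, and the differences between the strains were 1.53 (adjusted *P* = 0.00617) and 2.36 (adjusted *P* = 0.000145). *lacc* was also higher in untreated *cpc-1Δ* than in untreated WT, where it had 1.80 ± 0.787 scaled RPKM. *ci-1* rose from 65.0 and 62.3 to 205, 196 and 204 scaled RPKM (log2 fold change, 1.65, adjusted *P* = 0.000121). *Asm-1*, which encodes a transcription factor of the APSES family, rose from 46.0 and 51.2 to 106, 98.7 and 104 scaled RPKM (log2 fold change, 1.07, adjusted *P* = 2.14e-07). *nic-7* and *pex26* rose by 0.98 each on the log2 scale (adjusted *P* = 5.25e-05 and 3.68e-05).

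**Figure D4:**
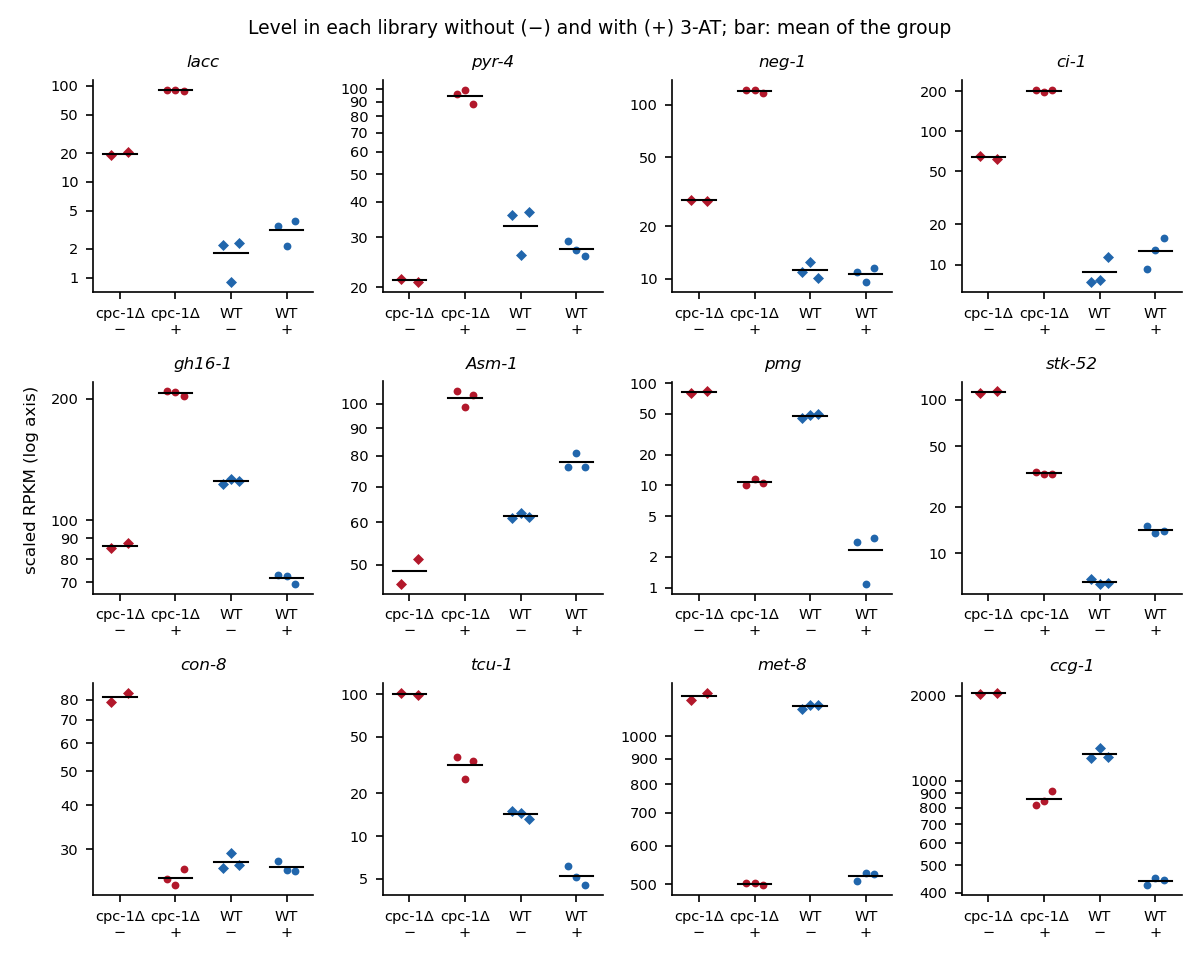
Level in each library (y axis, scaled RPKM, log axis) of 6 genes that rose and 6 that fell with 3-AT in *cpc-1Δ* (red), beside the WT libraries (blue), without 3-AT (diamonds, −) and with 3-AT (circles, +). Black bars are group means. In *cpc-1Δ* the 2 groups are apart in all 12 genes, because only genes with such groups were eligible to be drawn. In WT *lacc*, *pyr-4*, *neg-1*, *ci-1* and *con-8* were not called.

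Among the falls, the kinase gene *stk-52* went from 112 and 114 to 33.7, 33.0 and 33.1 scaled RPKM (log2 fold change, −1.73, adjusted *P* = 2.44e-09). In WT it was far lower without 3-AT, at 6.48 ± 0.259 scaled RPKM, and rose to 14.1 ± 0.794. *tcu-1*, a copper transporter gene, went from 102 and 98.1 to 36.0, 25.3 and 33.8 scaled RPKM (log2 fold change, −1.65, adjusted *P* = 1.58e-05), and it fell in WT too (difference, −0.35, adjusted *P* = 0.219). *eat-5* (log2 fold change, −1.33, adjusted *P* = 0.000519, and with the first transcript alone −0.27, adjusted *P* = 0.343) and the blue-light-induced gene *bli-3* (−1.20, adjusted *P* = 1.22e-07) followed. In the plot of levels by library, the untreated libraries of the 2 strains did not overlap in all 12 genes drawn. How often this held among all genes was not counted, so that it is not read as a trait of these genes. Among those of the 949 genes that had no symbol and no value of 0, the highest log2 fold changes were those of NCU05068 (3.23), NCU04526 (3.02) and NCU05089 (2.98), and the lowest those of NCU08351 (−2.28), NCU01436 (−1.51) and NCU04942 (−1.48). NCU04526 had 25.5 and 27.4 scaled RPKM without and 221, 221 and 224 with 3-AT, and in WT it was at 12.1 ± 0.501 and 18.6 ± 1.85. NCU05068 had 4.31 and 4.29 scaled RPKM without and 51.0, 48.7 and 46.9 with 3-AT, and it also rose in WT, from 14.1 ± 0.238 to 57.1 ± 5.05. In NCU01436 a single treated library was at 50.8 scaled RPKM against 167 and 193 in the others, and its call was lost without either untreated library (adjusted *P* = 0.0849 and 0.0956). With a pseudocount of 0.1 NCU08351 was not called (log2 fold change, −2.36, adjusted *P* = 0.17).

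Still larger changes were listed for genes with a group at 0. Of the 2772 genes called, 233 had a 0 in at least 1 of the 5 libraries. Of these, 74 rose from 0 in both libraries without 3-AT, and 70 fell to 0 in all 3 libraries with 3-AT. They include *cmd*, the gene of calmodulin, a protein that every cell uses, which had 143 and 138 scaled RPKM without 3-AT and 0 in all 3 libraries with 3-AT. In WT *cmd* was listed at 0 in 1 library of each group. *ccg-14* was listed at 705 in both libraries without and at 0 with 3-AT, *ccg-13* at 0 in both libraries without and at 861, 841 and 858 with 3-AT, and *ada-1* at 0 in both and at 216, 160 and 210. Of genes without a symbol, and over these 5 libraries, NCU05138, NCU08345 and NCU10046 were at 0 with 3-AT only, and NCU04583, NCU08923 and NCU02745 at 0 without 3-AT only. Whether such a 0 is a failed estimate or a lack of the mRNA was not tested, and the fitted fold changes of these genes, which depend on the pseudocount, are not read as sizes. Without all genes with a 0 in the 5 libraries, 1377 genes rose and 1302 fell.

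**Figure D5:**
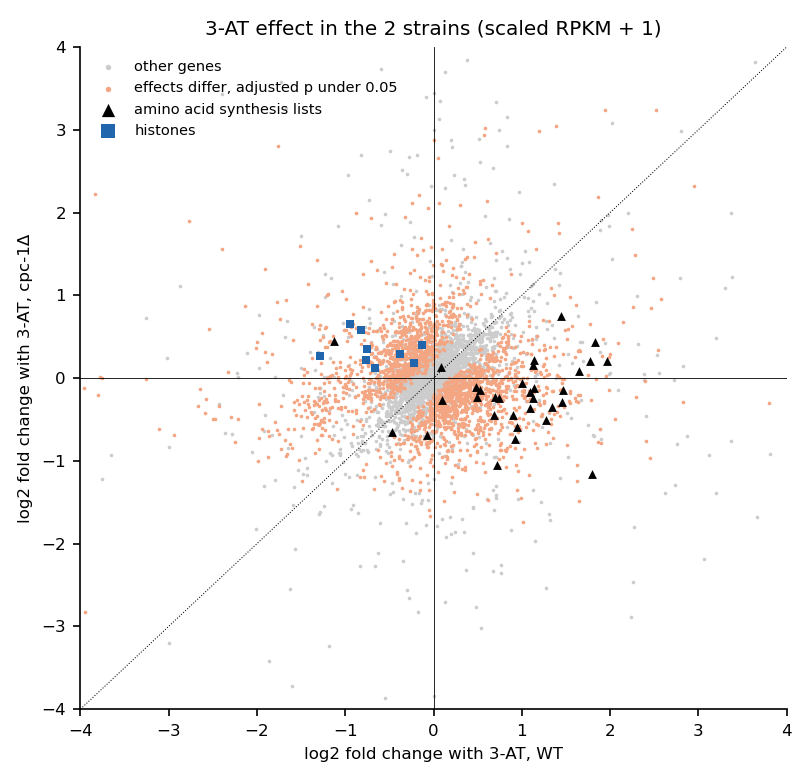
The 3-AT effect in *cpc-1Δ* (y axis) against that in WT (x axis), as log2 fold changes of scaled RPKM + 1, for 4393 of the 4452 genes that averaged at least 10 scaled RPKM, leaving out 59 beyond the axis limits of 4. Genes whose effects differ (2142, orange) lie away from the dotted line of equal effects, 32 amino acid synthesis genes (black triangles) lie mostly to the right of it and near or below 0 on the y axis, and the 9 histone genes (blue squares) lie above it.

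Set side by side, the 1413 genes that rose in *cpc-1Δ* held 567 that also rose in WT (40.1% of them, and 26.05% of the 2177 that rose in WT) and 293 that fell there (20.7%). The 1359 genes that fell in *cpc-1Δ* held 438 that also fell in WT (32.2% of them, and 30.9% of the 1417 that fell in WT) and 400 that rose there (29.4%). Of all genes tested, 24.2% rose and 15.7% fell in WT, and 15.7% rose and 15.1% fell in *cpc-1Δ*. Of the 2177 genes that rose in WT, 1336 (61.4%) had a lower effect in *cpc-1Δ*. These 2177 genes were picked for a high effect in WT, which the difference subtracts, so that the choice itself raises that share. These shares depend on which genes passed in each strain, and the test of the difference is the one of the 3219 genes (35.7% of all tested) given above by direction. Scaling moved both strains in the same direction, since the mean scale factor changed with 3-AT by −0.51 in *cpc-1Δ* and by −0.43 in WT on the log2 scale. As deposited, the effect was higher in *cpc-1Δ* for 1104 genes and lower for 2058. The plot of the 2 effects shows the amino acid synthesis genes and the histone genes on opposite sides of the line of equal effects.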

How the data were processed

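The authors deposited 1 table per library with an RPKM value (reads scaled by transcript length and by library size) for each annotated transcript. The submitters' processing notes name TopHat2 and Cufflinks. Versions, genome build and annotation are not given in the sources used here. The labels name a TruSeq kit, while the methods name NEBNext kits and 2 Illumina instruments without saying which library each made. Of 10792 entries, 7 with a remark were left out and the transcripts of a gene were added, giving 9730 genes (9729 matched to an NC12 table, 1118 with a symbol, while 717 at 0 in all 15 libraries were not tested). Gene groups were looked up by symbol, and symbols not matched were not analysed here. Lists named for a kind of protein, such as ribosomal proteins or aminoacyl-tRNA synthetases, therefore leave out members without a symbol and are not read as whole families.

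RPKM values were scaled by the median ratio to the geometric mean over the genes above 0 in all 15 libraries with a mean of at least 10 RPKM. Log2(scaled RPKM + 1) was fitted by limma (3.58.1, under R 4.3.3) to 6 group coefficients, with Benjamini-Hochberg adjustment over all genes tested and an adjusted *P* threshold of 0.05. A fold change on this scale understates that of low genes. The difference between strains was an interaction contrast. Tests on counts were planned for the case that counts were given. The fit was tested on simulated data. Python 3.11.15 and pandas 2.3.3 made the tables.

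The genes named were all members of the histidine, cross-pathway control and qRT-PCR lists, β-tubulin, the 10 highest and 10 lowest fold changes with a symbol and 3 and 3 without one among the genes defined in the text, and up to 3 called members of each other list. Filling these places again without genes at 0 was added after the values were seen, as were *aro-6*, *fl* and *arg-5*. The members and lists were chosen with earlier results of these data known. The alternatives were values as deposited, upper-quartile scaling, division by β-tubulin, pseudocounts of 0.1 and 5, a filter of 1 scaled RPKM, the 5 libraries alone, limma's prior variance as a function of the mean, other handling of zeros, the first transcript alone, a replicate block, a mean of at least 20 scaled RPKM and leaving out each library. The 3 libraries of the transgene strain and a motif upstream of genes were not analysed here.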

Additional observations from a re-analysis of the deposited data

Results flagged for a closer look

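The 3-AT effect in *cpc-1Δ* differed from that in WT for 3219 genes by the interaction contrast. Of the 17 genes of the histidine, cross-pathway control and qRT-PCR lists with β-tubulin, 11 differed, against 35.7% of all genes tested. Of all 114 genes named by rule, 32 were called in opposite directions in the 2 strains, 22 of them falling and 10 rising in *cpc-1Δ*. Apart from the 17, these genes were named only if called in *cpc-1Δ*, so that the choice itself raises this count. Of all 9013 genes tested, 400 fell in *cpc-1Δ* and rose in WT, and 293 did the reverse. The values below are the log2 fold change in *cpc-1Δ* minus that in WT.

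In amino acid synthesis and cross-pathway control the difference was −1.70 for *his-3*, −1.40 for *his-6* and −0.93 for *his-2*. It was −1.54 for *thr-4*, −1.13 for *aro-7* and −1.46 for *aro-8*. The arginine genes had −1.66 (*arg-1*), −1.77 (*arg-2*), −1.56 (*arg-10*) and −1.56 (*arg-12*), and *pro-4*, of proline synthesis, had −0.57. The other values were −1.35 for *ilv-2*, −1.78 for *lys-5*, −1.71 for *cyt-20*, −0.71 for the remnant of *cpc-1* and −1.13 for *cpc-3*, while *cpc-2* had 0.97. *trp-4*, listed at 0 with 3-AT in *cpc-1Δ*, had −5.57, a value that depends on the pseudocount.

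In other metabolism the difference was −6.11 for *acu-6*, −3.17 for *acu-9* and −1.64 for *acu-15*. It was −1.68 for *cys-11*, −1.09 for *eth-1* and −0.69 for *al-2*. *mtr* had 1.62 and *aga-1* had 0.64.

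Among the remaining genes, the difference was −2.75 for *stk-52*, −1.53 for *mfa-1*, −0.90 for *tba-2* and −0.75 for *hsp88*. It was positive for *gh28-1* (2.69), *gh16-1* (2.05), *acw-4* (1.27), *hH2A* (1.60), *hH3* (1.41), *ubi::crp-6* (2.22) and *rpn-12* (1.00). *ccg-13* had 10.84 and NCU08345 had −12, and both were listed at 0 in all libraries of a *cpc-1Δ* group, so that these sizes depend on the pseudocount.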

How the results depend on the processing

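As deposited, 4335 genes were called with 3-AT in *cpc-1Δ* in place of 2772, with 386 rising and 3949 falling. With a mean of at least 20 scaled RPKM, added after the data were seen, 1655 of 2834 genes were called (750 rising, 905 falling) and 1702 differed between the strains (850 higher, 852 lower). The other alternatives moved these counts by less than 1.5 times. Leaving out 1 library gave 2121 to 2475 genes called (1096 to 1244 rising, 1025 to 1231 falling) and 2794 to 3093 differing between the strains (1197 to 1305 higher, 1597 to 1788 lower).

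For the 114 named genes, 2118 fits under alternatives left 1983 on the same side of the threshold, while 83 lost and 27 gained a call and 25 turned direction. As deposited, the log2 fold change turned for *hH3v* (−0.091), *his-7* (−0.36), *arg-12* (−0.41), *aga-1* (−0.33), *sor-4* (−0.18), *chs-1* (−0.29), *Bml* (−0.48), *tre-2* (−0.36), *mtr* (−0.27), *his-6* (−0.058), *arg-10* (−0.29) and *trp-3* (−0.049), and with upper-quartile scaling for *Bml* (−0.038). With the first transcript alone it turned for *his-7* (−0.48), *nuo13.4* (0.047), NCU01436 (4.60), *wc-1* (1.42), *arg-1* (0.60), *eth-1* (1.74), *hsp88* (1.10), *gsy-1* (4.59), *cys-18* (7.46) and *emp-7* (10.2). Without 1 library, *arg-12* ranged from −0.0017 to 0.15. With only the 5 libraries fitted, 7 named genes lost their call, namely NCU01436, *cyt-20*, *aga-1*, *tre-2*, *ubi::crp-6*, *arg-10* and *tba-1*. In that fit *thr-5* and *trp-3* gained a call. The cause of these changes was not tested.

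The replicate numbers were not shown to pair the libraries, since the deviations of same-numbered libraries correlated at 0.0437 and 0.0472 (Pearson's r over genes, 2 pairs). A replicate block in the fit left 2511 genes called (1277 rising, 1234 falling), 2985 that differed between the strains (1268 higher, 1717 lower), while 7 named genes lost their call and *trp-3* turned to −0.036. Depth is unknown, so that low values carry no counting error here, and 2 untreated libraries limit every result.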
